A study of Mus musculus with 3 samples.

Results

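The 32 genes described here encode the parts of basement membranes and the receptors that hold cells to them: collagens (Col4a1, Col4a2, Col4a5, Col15a1 and Col18a1), laminin chains (Lama2, Lama3, Lama4, Lama5, Lamb1, Lamb2, Lamb3 and Lamc1), the linkers Nid1, Nid2 and Hspg2, integrin chains (Itga2, Itga3, Itga5, Itga6, Itga8, Itga9, Itgav, Itgb1, Itgb4, Itgb5 and Itgb6), the partners of the integrins in the cell (Dst, Plec and Cd151) and the Fraser complex genes Fras1 and Frem2. They were chosen by name and are 32 of the 28693 genes listed. Their unique molecular identifiers (UMIs, 1 per captured transcript) were counted in barcodes that passed 2 filters, a minimum of 200 genes detected and a ceiling of 10% for mitochondrial UMIs. All 32 had at least 1 UMI in each library, and together they held 0.127, 0.147 and 0.141% of the kept UMIs of NP, dpc16 and dpp42.

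A basement membrane is a thin sheet of matrix between an epithelium, a vessel or a muscle fibre and the tissue around it. Laminins, each made of an alpha, a beta and a gamma chain, form one network, type IV collagen forms another, and nidogens and the proteoglycan perlecan tie the networks together. Integrins, each a pair of an alpha and a beta chain, bind the sheet from the cell side. In skin the epidermis is anchored by hemidesmosomes, in which the integrin of Itga6 and Itgb4 joins laminin-332 outside to plectin, dystonin and keratin filaments inside, while vessels and dermal nerves have basement membranes of other laminins. The question put to the data is which side of each membrane held which transcripts, and how the levels compared between the stages.

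Cells came from the abdominal skin of C57BL/6 mice carrying Col1a2creERT2 and R26H2B EGFP, an inducible Cre from a type I collagen gene promoter and a histone reporter, which all groups shared, as they did tamoxifen and an age of 8 to 12 weeks. Each group was 1 library: NP, from mice that were not pregnant and were sampled 48 days after 3 days of tamoxifen; dpc16, at gestation day 16; and dpp42, at day 42 post partum, the last 2 with tamoxifen during pregnancy. The labels do not say how many animals went into a library. After the fat was cut away, epidermis and dermis were split by 30 min in 0.25% trypsin, and single dermal cells that passed filters of 40 and 20 µm went into 10x Chromium libraries (version 2, 3′ ends).

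With 1 library per group no test is possible, and a difference between stages cannot be told apart from a difference between libraries. UMIs were summed over the cells of a class in a library and are given as CPM, counts scaled to 1000000 UMIs of that sum. Their exact Poisson 95% intervals, and the 95% intervals of ratios, cover counting error only. A gene was measured in a comparison with at least 10 CPM in 1 of the 2 sums and at least 20 UMIs over both. It was called when the ratio differed by 1.5 times or more in either direction with an interval clear of 1, and the share of all measured genes called in the same way is given as the background. The 3′ counts are not per transcript length, so levels were not compared between genes.

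The libraries kept 1289 (NP), 3652 (dpc16) and 1081 (dpp42) cells, against 1289, 3650 and 1081 stated by the submitters, with median UMIs per cell of 3119, 4300.5 and 3252. They shared 1 to 6 barcodes by pairs. The suspension was labelled dermal but held keratinocytes, and 5 classes were taken from 33 clusters that were formed without the 32 genes and named from marker lists. Basal keratinocyte-like cells numbered 246, 307 and 98 in NP, dpc16 and dpp42, follicle keratinocyte-like cells 169, 671 and 229, fibroblast-like cells 97, 1082 and 112, blood endothelial-like cells 41, 128 and 89, and lymphatic endothelial-like cells 19, 141 and 34. Krt5, a keratin of basal keratinocytes, had 4131, 4258 and 3965 CPM in basal keratinocyte-like cells of NP, dpc16 and dpp42, against 348, 196 and 433 CPM in fibroblast-like cells. Col1a1, the type I collagen of fibroblasts, had 23.6, 71.9 and 11.4 CPM in basal keratinocyte-like cells, against 12234, 25993 and 8078 CPM in fibroblast-like cells. Unnamed clusters held 12.7, 11.5 and 12.0% of cells, among them a cycling cluster and one with red cell genes, and doublets were not removed.

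RNA free in the suspension adds UMIs to cells that do not express a gene. Defining markers of basal keratinocytes stood in fibroblast-like cells at a median of 7.26, 4.61 and 10.9% of their basal level in NP, dpc16 and dpp42, and fibroblast markers in basal keratinocyte-like cells at 0.258, 0.428 and 0.241% of their fibroblast level. By that measure 6, 2 and 7 of the 32 genes in fibroblast-like cells were at or below what free RNA could give, and 4, 4 and 5 in basal keratinocyte-like cells. Such levels are read as background.

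**Figure D1:**
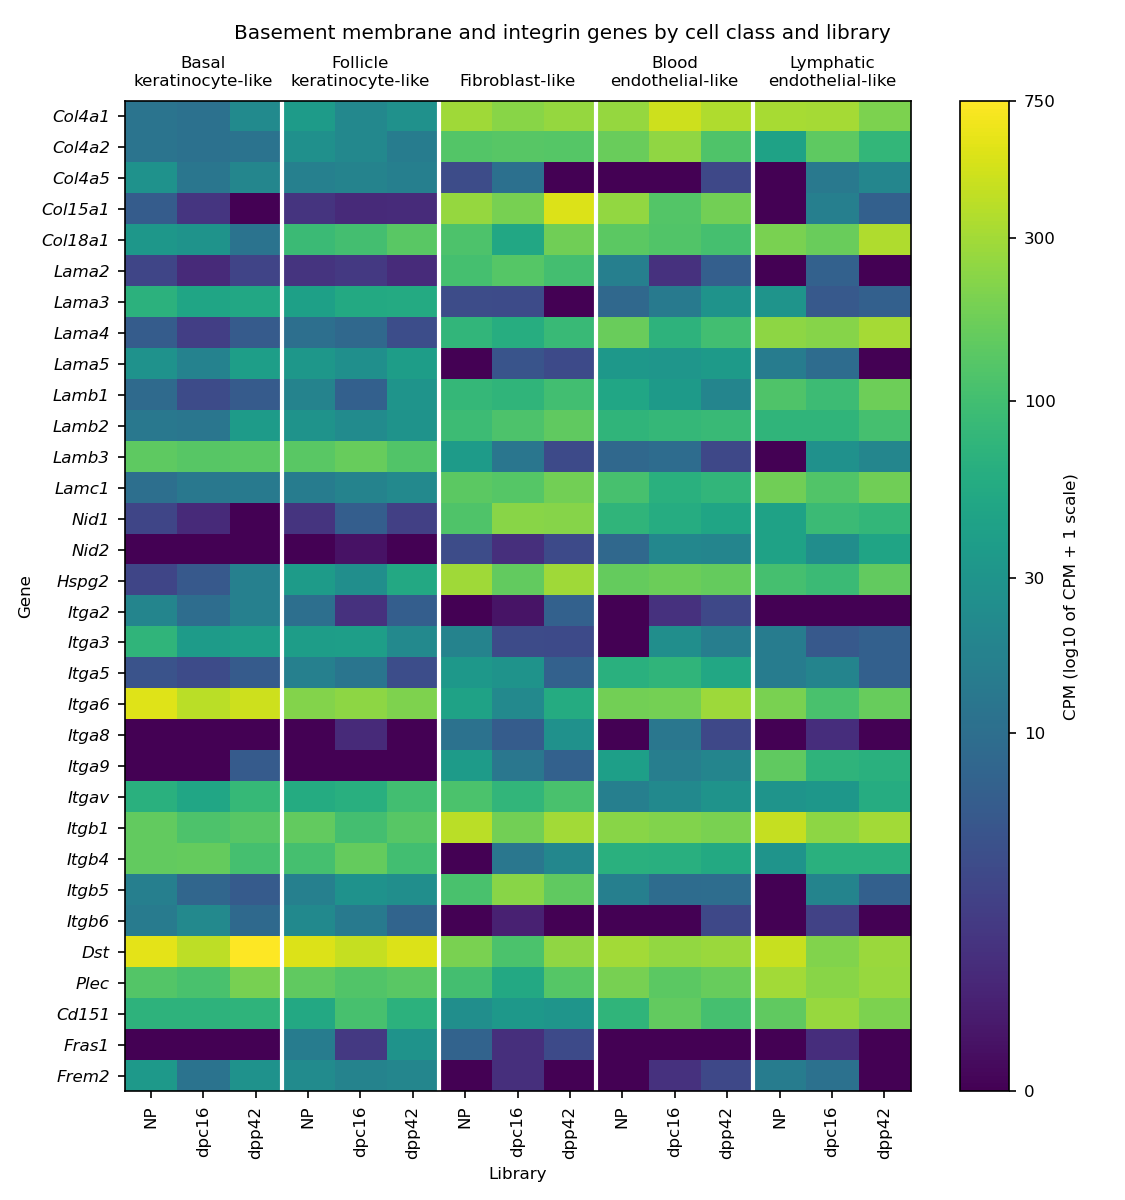
Levels of the 32 genes (rows) in 5 cell classes, each with its NP, dpc16 and dpp42 library as columns, coloured by log10 of CPM plus 1. Itga6, Itgb4, Dst, Lama3 and Lamb3 are bright in the basal and follicle columns, Lama2, Nid1 and Itgb5 in the fibroblast columns, and Lama4 and Itga9 in the lymphatic columns.

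The epidermal side of the junction held the hemidesmosome genes Itga6, Itgb4 and Dst and the laminin-332 chains Lama3 and Lamb3. Plec was not confined to that side. Compared with fibroblast-like cells, basal keratinocyte-like cells had 5 of the 20 genes measured in all 3 libraries higher in each library, and these were Lamb3, Itga6, Itgb4, Dst and Cd151. Another 13 of the 20 were lower in each, and Itgav and Plec were not called the same way throughout. The backgrounds for the same rule over 4003 genes were 12.3% higher and 15.6% lower, 27.9% in all. Within 1 library, 9 higher and 14 lower of 24 measured genes were counted in NP (background 19.7% higher and 19.4% lower, 39.1% in all), 11 and 16 of 28 in dpc16 (background 27.7% higher and 30.5% lower, 58.2% in all), and 5 and 13 of 20 in dpp42 (background 17.5% higher and 24% lower, 41.5% in all).

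Itga6 (chr2:71745616-71858416, GRCm38), the alpha chain of the hemidesmosome integrin, had 539, 373 and 453 CPM in basal keratinocyte-like cells of NP, dpc16 and dpp42, against 44, 21.7 and 58 CPM in fibroblast-like cells. The classes were far apart in each library, by 12.3-fold (95% interval 6.94 to 24), 17.2-fold (95% interval 14 to 21.4) and 7.82-fold (95% interval 4.73 to 13.8), and the fibroblast values were close to the 39.1, 17.2 and 49.5 CPM that free RNA could give. Its partner Itgb4 had 151, 155 and 105 CPM in basal keratinocyte-like cells and 0, 12.7 and 20.5 CPM in fibroblast-like cells. No NP fibroblast-like cell held an Itgb4 UMI, so that ratio is only bounded, at least 13.7-fold higher with 3 UMIs as the floor for the sum, and it was 12.1-fold in dpc16 and 5.16-fold in dpp42. Dst, the dystonin that ties keratin filaments to the hemidesmosome, had 576, 388 and 749.7 CPM in basal keratinocyte-like cells, against 198, 113 and 249 CPM in fibroblast-like cells. It was 2.91-, 3.44- and 3.01-fold higher in NP, dpc16 and dpp42, a narrower gap than for the integrin chains. Cd151, a tetraspanin that partners laminin-binding integrins, had 70.9, 71.3 and 74.1 CPM in basal keratinocyte-like cells and 25.6, 33 and 30.7 CPM in fibroblast-like cells, 2.77-, 2.16- and 2.42-fold higher. Plec, the plectin shared by many adhesion sites, had 126, 110.3 and 191 CPM in basal keratinocyte-like cells and 103, 53.4 and 129.6 CPM in fibroblast-like cells, and was called higher in dpc16 alone, at 2.06-fold (95% interval 1.7 to 2.5).

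Of these laminin chains, Lamb3 had 143, 134 and 137 CPM in basal keratinocyte-like cells and 36.6, 12.5 and 3.41 CPM in fibroblast-like cells of NP, dpc16 and dpp42. The basal levels lay within 10 CPM of each other, and the ratios to fibroblast-like cells were 3.91-fold (95% interval 2.04 to 8.42), 10.7-fold (95% interval 8.03 to 14.5) and 40.1-fold (95% interval 6.87 to 1618), the last against 1 UMI. Lama3, the alpha chain, had 69.4, 47.9 and 51.3 CPM in basal keratinocyte-like cells and 3.66, 3.55 and 0 CPM in fibroblast-like cells, 19-fold (95% interval 3.24 to 765) higher in NP, against 1 UMI, and 13.5-fold in dpc16, and it had too few UMIs to be measured in dpp42. Itga3, whose integrin also binds laminin-332, had 75.4, 36.6 and 39.9 CPM in basal keratinocyte-like cells and 18.3, 3.55 and 3.41 CPM in fibroblast-like cells. Col17a1, the transmembrane collagen of the hemidesmosome, had 1086, 827 and 1052 CPM in basal keratinocyte-like cells and 150.2, 83.5 and 167 CPM in fibroblast-like cells. Col7a1, the anchoring fibril collagen on the dermal face of the junction, was divided otherwise, with 84.2, 48.5 and 96.9 CPM in basal keratinocyte-like cells and 29.3, 54.1 and 78.4 CPM in fibroblast-like cells. It was higher in basal keratinocyte-like cells in NP, at 2.87-fold (95% interval 1.36 to 6.98), and in dpc16 and dpp42 the ratios of 0.898 and 1.24 were not called.

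Other epidermal genes were low. Frem2, a transmembrane protein of the Fraser complex that joins epithelium to dermis, had 34, 11.4 and 28.5 CPM in basal keratinocyte-like cells (23, 19 and 10 UMIs) and 0, 1.46 and 0 CPM in fibroblast-like cells, in NP, dpc16 and dpp42. It was called higher in basal keratinocyte-like cells in NP, where the bound with the floor is at least 3.09-fold, and in dpc16, at 7.79-fold (95% interval 3.14 to 21.9). Lama5, the alpha chain of the laminin found in most adult basement membranes, had 28.1, 18 and 39.9 CPM in basal keratinocyte-like cells and 0, 4.59 and 3.41 CPM in fibroblast-like cells. It was not confined to the epidermis, with 33.1, 31.6 and 35.5 CPM in blood endothelial-like cells of NP, dpc16 and dpp42. Itgb6, an epithelial partner of Itgav that activates TGF-β, had 14.8, 21.6 and 8.55 CPM in basal keratinocyte-like cells and 0, 0.835 and 0 CPM in fibroblast-like cells, and Itga2, a collagen receptor chain, had 19.2, 9.59 and 17.1 CPM in basal keratinocyte-like cells and 0, 0.417 and 6.82 CPM in fibroblast-like cells. Both had at most 4 UMIs in the fibroblast-like sums and between 3 and 36 in the basal sums of the 3 libraries. Col4a5, a chain of the type IV collagen of epithelia, had 28.1, 12.6 and 20.0 CPM in basal keratinocyte-like cells and 3.66, 10.6 and 0 CPM in fibroblast-like cells, the reverse of Col4a1 and Col4a2 in the direction of its values.

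Within the interfollicular epidermis the hemidesmosome integrin and dystonin were lower in suprabasal than in basal clusters. Basal keratinocyte-like cells formed 2 clusters, numbered 7 (led by Ccl27a and Krt5) and 2 (led by Serpinb2, Fosl1 and Krt16), and suprabasal keratinocyte-like cells formed clusters 1, 11 and 12. In NP, Itga6 had 497 and 696 CPM in the basal clusters 7 and 2, and 267, 139.8 and 52 CPM in the suprabasal clusters 1, 11 and 12. The same order held in dpc16, with 353 and 380.0 CPM in the basal clusters and 177, 85.4 and 49.1 CPM in the suprabasal ones. Dst in NP had 608 and 459 CPM in clusters 7 and 2, and 369, 159 and 56.7 CPM in clusters 1, 11 and 12. Plec had no such order, with 135, 90.5, 101, 107 and 85.1 CPM in NP in clusters 7, 2, 1, 11 and 12. Itgb5, a partner of Itgav in a vitronectin receptor, ran the other way, with 15, 4.93 and 7.03 CPM in cluster 7 of NP, dpc16 and dpp42 and 48.9, 68.7 and 52.7 CPM in cluster 11. The cycling cluster, which had no name, held Itga6 at 239, 193 and 308 CPM.

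**Figure D2:**
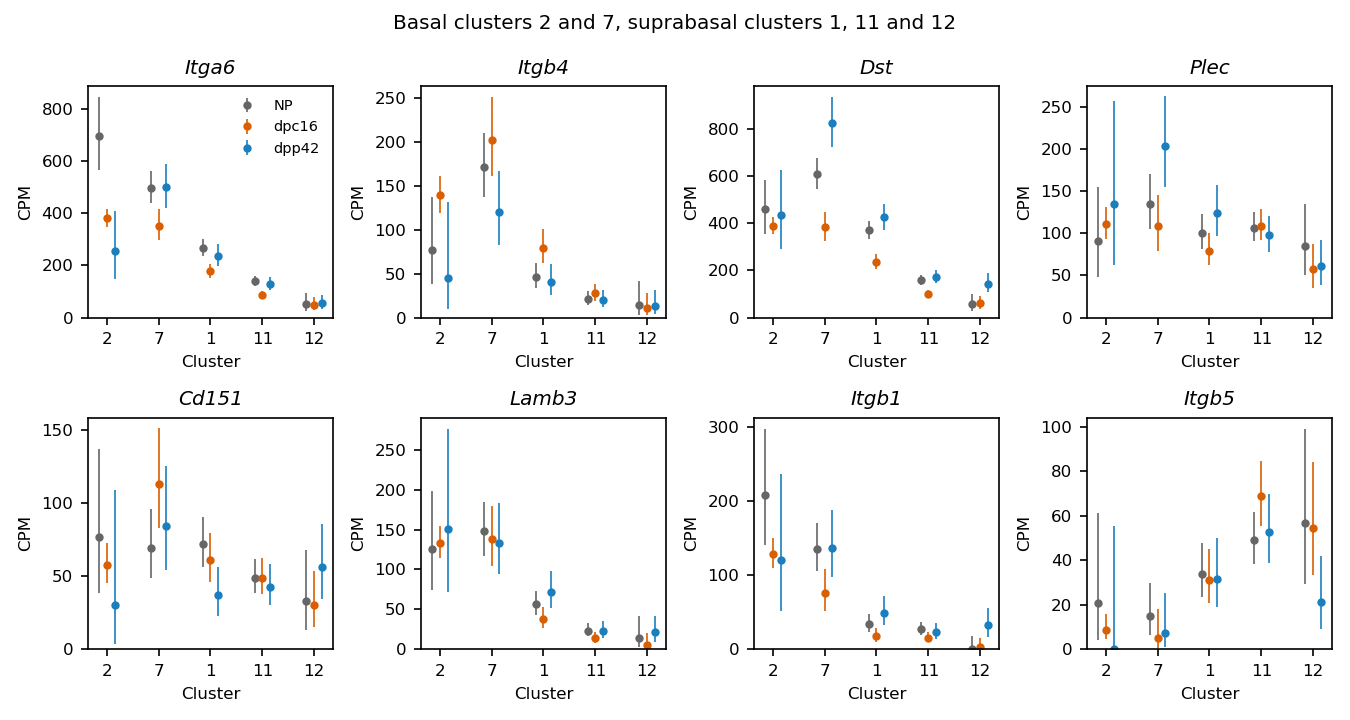
CPM (y axes) of 8 genes in basal clusters 2 and 7 and suprabasal clusters 1, 11 and 12 (x axes), with 1 point per library (NP grey, dpc16 orange, dpp42 blue) and bars for the exact Poisson 95% interval. Itga6, Itgb4, Dst, Lamb3 and Itgb1 are lowest in suprabasal clusters 11 and 12, and Itgb5 is higher there than in the basal clusters.

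Follicle keratinocyte-like cells held more of the heparan sulphate collagen and of perlecan than basal ones, and less Itga6. Of 18 genes measured in all 3 libraries, Col18a1 and Hspg2 were higher than in basal keratinocyte-like cells in each library and Itga6 was lower in each. The other 15 were not called the same way throughout, and the background was 9.83%, 6.69% higher and 3.14% lower. Within 1 library the calls were 3 higher and 2 lower of 20 in NP (background 12.8% higher and 9.68% lower, 22.5% in all), 8 and 1 of 22 in dpc16 (background 25.8% higher and 9.57% lower, 35.4% in all), and 5 and 1 of 21 in dpp42 (background 14.6% higher and 7.13% lower, 21.7% in all). Col18a1, whose C-terminal part is endostatin, had 89.4, 103 and 138 CPM in follicle keratinocyte-like cells of NP, dpc16 and dpp42, against 32.5, 29.4 and 11.4 CPM in basal keratinocyte-like cells, 2.75-, 3.5- and 12.1-fold higher. Hspg2, perlecan, had 37.1, 25.6 and 53.8 CPM in follicle keratinocyte-like cells and 2.96, 5.39 and 17.1 CPM in basal ones, where only 2, 9 and 6 UMIs were counted. Itga6 had 218, 241 and 207 CPM in follicle keratinocyte-like cells, which is 2.48-, 1.55- and 2.19-fold lower than in basal ones. The class joined bulge and upper follicle clusters, among them cluster 27 (5, 52 and 43 cells, led by Pinlyp, Krt6a and Krt71). Over clusters 0, 3, 14 and 20 weighted equally, without cluster 27, Itga6 had 205, 272 and 243 CPM. The part of the cluster mix in the lower Itga6 was not tested.

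Among the follicle clusters, cluster 0, led by Postn, Sfrp1 and Lhx2 of the bulge, had 872, 709.8 and 794 CPM of Dst in NP, dpc16 and dpp42 and 264, 256 and 213 CPM of Lamb3, the most of any follicle cluster in NP and dpc16 for both. In dpp42 cluster 3 was above it, with 961 CPM of Dst and 236 CPM of Lamb3, on 16 cells. Col18a1 in cluster 0 had 169, 163 and 268 CPM. Cluster 20, led by Nppc and Lgr5, a gene of the lower follicle's stem cells, was highest in Fras1, with 32.2, 7.99 and 76.5 CPM in NP, dpc16 and dpp42. Fras1, the secreted partner of Frem2, was at 0 UMIs in basal keratinocyte-like cells of all 3 libraries, and over all follicle keratinocyte-like cells it had 15.2, 1.97 and 28.8 CPM (9, 5 and 23 UMIs). The level was lowest in dpc16 in both sums. Cluster 20 also held Lamb1, a beta chain of widespread laminins, at 32.2, 29.3 and 80.2 CPM, against 8.87, 3.6 and 5.7 CPM in basal keratinocyte-like cells, and Lama3 at 39.3, 98.5 and 62 CPM.

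The dermal side held the network collagens, the other laminins and the linkers. The 13 genes lower in basal keratinocyte-like than in fibroblast-like cells in each library were Col4a1, Col4a2, Col15a1, Col18a1, Lama2, Lama4, Lamb1, Lamb2, Lamc1, Nid1, Hspg2, Itgb1 and Itgb5. Col4a1 and Col4a2, the 2 chains of the common type IV collagen, are set head to head in the genome: Col4a1 at chr8:11198423-11312826 on the minus strand and Col4a2 at chr8:11312805-11449287 on the plus strand of GRCm38. Their starts lie 21 bases apart and the genes overlap, so that 22 bases are transcribed from both strands. The pair is shown because the windows from 250 bases before to 50 bases after each start (RefSeq, GRCm38.p6; chr8:11312777-11313076, minus strand, and chr8:11312555-11312854, plus strand) share 78 bases, at 11312777 to 11312854, which stand in capitals and are reverse complements of each other:
Col4a1: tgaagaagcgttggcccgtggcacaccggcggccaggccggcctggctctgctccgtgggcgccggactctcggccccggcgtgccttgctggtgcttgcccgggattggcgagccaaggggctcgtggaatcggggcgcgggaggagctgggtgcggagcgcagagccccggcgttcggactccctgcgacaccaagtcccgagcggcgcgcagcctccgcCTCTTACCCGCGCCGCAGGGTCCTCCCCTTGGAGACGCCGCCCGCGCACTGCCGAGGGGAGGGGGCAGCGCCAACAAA
Col4a2: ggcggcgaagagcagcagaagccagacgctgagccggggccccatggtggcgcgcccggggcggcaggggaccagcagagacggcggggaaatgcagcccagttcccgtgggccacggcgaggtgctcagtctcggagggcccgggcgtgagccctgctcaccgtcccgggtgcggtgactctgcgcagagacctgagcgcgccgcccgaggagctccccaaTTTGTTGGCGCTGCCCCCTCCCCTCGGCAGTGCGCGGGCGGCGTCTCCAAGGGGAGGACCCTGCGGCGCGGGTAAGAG
The shared stretch holds 1 GC box (GGGCGG, either strand) and no CCAAT. The whole Col4a1 window holds 1 GC box and 1 CCAAT and the whole Col4a2 window 3 GC boxes and 1 CCAAT, and of all 32851 windows of this length 35.7% hold GGGCGG and 37.4% hold CCAAT. The search over the 30 windows found for 24 of the 32 genes gave GGGCGG in 18, CCAAT in 9, TGANTCA in 2 and TATAAA in 0, with shares over all windows of 7.81% for TGANTCA and 13.6% for TATAAA. A match is only these letters on either strand and says nothing of binding.

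Both paired genes stood on the dermal side of the epidermal junction. Col4a1 had 11.8, 10.8 and 22.8 CPM in basal keratinocyte-like cells of NP, dpc16 and dpp42, against 293, 229.8 and 259 CPM in fibroblast-like cells, and was 24.8-, 21.3- and 11.4-fold lower in the basal cells. Col4a2 had 11.8, 10.8 and 11.4 CPM in basal keratinocyte-like cells and 128, 134 and 129.6 CPM in fibroblast-like cells, 10.8-, 12.4- and 11.4-fold lower in the basal cells. Both therefore stood at more than 10 times the basal level in fibroblast-like cells of each library. Col15a1 (chr4:47208161-47313167), a collagen of the outer face of vessel and nerve basement membranes, had 5.91, 1.8 and 0 CPM in basal keratinocyte-like cells and 260.1, 192 and 529 CPM in fibroblast-like cells, with 4, 3 and 0 UMIs in the basal sums. Col18a1 had 32.5, 29.4 and 11.4 CPM in basal keratinocyte-like cells and 117, 51.3 and 177 CPM in fibroblast-like cells, 3.61-, 1.75- and 15.6-fold lower in the basal cells.

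Of the laminin alpha chains, Lama2, the chain that muscle and nerve need, had 2.96, 1.2 and 2.85 CPM in basal keratinocyte-like cells and 106, 129.8 and 102 CPM in fibroblast-like cells of NP, dpc16 and dpp42. It was 35.9-fold (95% interval 9.09 to 311), 108-fold (95% interval 29.9 to 896) and 35.9-fold (95% interval 5.97 to 1464) lower in the basal cells, whose sums held 2, 2 and 1 UMIs. Lama4, the chain of vessel laminins, had 5.91, 2.4 and 5.7 CPM in basal keratinocyte-like cells and 76.9, 61.6 and 88.7 CPM in fibroblast-like cells. The shared chains followed the same side: Lamb1 had 8.87, 3.6 and 5.7 CPM, Lamb2 13.3, 12.6 and 37.1 CPM and Lamc1 10.3, 13.2 and 14.3 CPM in basal keratinocyte-like cells, against 80.6, 74.7 and 98.9 CPM, 91.6, 117 and 147 CPM and 139, 129.8 and 184 CPM for the same genes in fibroblast-like cells. Nid1 (chr13:13437551-13512269), which bridges laminin and type IV collagen, had 2.96, 1.2 and 0 CPM in basal keratinocyte-like cells and 121, 231 and 222 CPM in fibroblast-like cells. Hspg2 had 2.96, 5.39 and 17.1 CPM in basal keratinocyte-like cells and 289, 151 and 293 CPM in fibroblast-like cells, 97.9-fold (95% interval 26.2 to 823) lower in the basal cells of NP, on 2 UMIs, and 28.1- and 17.1-fold lower in those of dpc16 and dpp42. Nid2, the other nidogen, had no UMI in basal keratinocyte-like cells of any library and 3.66, 1.46 and 3.41 CPM in fibroblast-like cells.

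Among the receptors, Itgb1, the beta chain shared by most matrix integrins, had 151, 116 and 134 CPM in basal keratinocyte-like cells of NP, dpc16 and dpp42, against 374, 183 and 297 CPM in fibroblast-like cells. Its gap between the sides was small, 2.48-, 1.58- and 2.21-fold lower in the basal cells. Itgb5 (chr16:33829665-33949338) had 16.3, 7.79 and 5.7 CPM in basal keratinocyte-like cells and 109.9, 231 and 147 CPM in fibroblast-like cells, 6.76-, 29.7- and 25.7-fold lower. Itgav, the alpha chain that pairs with both Itgb5 and Itgb6, had 66.5, 49.7 and 82.7 CPM in basal keratinocyte-like cells and 114, 76.8 and 113 CPM in fibroblast-like cells and so was found on both sides. Itga5, the alpha chain of a fibronectin receptor, had 33, 28.8 and 6.82 CPM, and Itga8, a chain of mesenchymal cells, 11, 5.84 and 27.3 CPM in fibroblast-like cells, where they had 9, 138 and 2 and 3, 28 and 8 UMIs.

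Vessels held both type IV collagen and Itga6. Blood endothelial-like cells had 1 of 17 genes measured in all 3 libraries, Itga6, higher than fibroblast-like cells in each library, and Lama2, Itgav and Itgb5 lower in each, against a background of 27.7%, 14% higher and 13.7% lower. Within 1 library they had 3 higher and 5 lower of 17 in NP (background 19.7% higher and 19.2% lower, 38.9% in all), 13 and 7 of 28 in dpc16 (background 28.4% higher and 19% lower, 47.5% in all), and 3 and 11 of 19 in dpp42 (background 23.7% higher and 21.3% lower, 45% in all). Itga6 had 182, 187 and 284 CPM in blood endothelial-like cells of NP, dpc16 and dpp42, against 44, 21.7 and 58 CPM in fibroblast-like cells. It was 4.14-, 8.59- and 4.9-fold higher, while its partner Itgb4 had 66.2, 64.8 and 54.9 CPM in the blood endothelial-like cells. Col4a1 had 265, 450.5 and 342 CPM in blood endothelial-like cells and 293, 229.8 and 259 CPM in fibroblast-like cells, and was called higher in dpc16 alone, at 1.96-fold (95% interval 1.72 to 2.24). Lama2 had 16.5, 1.58 and 6.46 CPM in blood endothelial-like cells, on 2, 1 and 2 UMIs, and 106, 129.8 and 102 CPM in fibroblast-like cells. Itga5 had 66.2, 75.9 and 51.7 CPM in blood endothelial-like cells, and Nid2 had 8.27, 20.5 and 19.4 CPM on 1, 13 and 6 UMIs.

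Blood and lymphatic endothelial-like cells differed most clearly in Col15a1, which was the single gene of 11 measured in all 3 libraries called the same way in each (background 20.1%, 13.2% higher and 6.95% lower). It had 256, 128 and 184 CPM in blood endothelial-like cells of NP, dpc16 and dpp42, against 0, 16.3 and 6.6 CPM in lymphatic endothelial-like cells, which held 0, 12 and 1 UMIs. The ratio was at least 5.71-fold higher in NP, with 3 UMIs as the floor, then 7.86-fold (95% interval 4.27 to 15.8) in dpc16 and 27.9-fold (95% interval 4.81 to 1121) in dpp42, against 1 UMI. The NP lymphatic sum rests on 19 cells, and within 1 library the calls were 2 higher and 1 lower of 11 in NP (background 18.9% higher and 11.4% lower, 30.3% in all), 7 and 7 of 24 in dpc16 (background 15.2% higher and 22.3% lower, 37.5% in all), and 3 and 7 of 16 in dpp42 (background 16.7% higher and 15.8% lower, 32.5% in all). Lama4 leaned to lymphatic cells, with 165, 71.1 and 100.1 CPM in blood endothelial-like cells and 239.7, 222 and 303 CPM in lymphatic endothelial-like cells. It was called lower in the blood endothelial-like cells of dpc16 and dpp42, by 3.13- and 3.03-fold. Itga9, an integrin chain needed for lymphatic valves, had 41.3, 15.8 and 19.4 CPM in blood endothelial-like cells and 149.8, 73.3 and 66 CPM in lymphatic endothelial-like cells, 4.63-fold (95% interval 2.34 to 10.2) lower in dpc16.

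The vessel wall had parts of its own. In dpc16, blood endothelial cluster 32 (21 cells, led by Gkn3 and Sema3g) held Col18a1 at 446 CPM, Itga5 at 151 CPM and Col15a1 at 0 CPM. Cluster 17 of the same library (107 cells, led by Fabp4, Aqp1 and Plvap) held 48.7, 58.4 and 158 CPM of these genes. Mural-like cells, the contractile cells around vessels, were only 26 in all. Their 21 dpc16 cells had 593 CPM of Col4a1, 513 CPM of Col18a1, 649.8 CPM of Itgb1 and 148 CPM of Itga8, on 13 UMIs. The 8 mural markers summed to 959, 722 and 836 CPM in blood endothelial-like cells of NP, dpc16 and dpp42 (8 of 8 detected in each). They summed to 106, 245 and 215 CPM in fibroblast-like cells and 44.9, 65.1 and 26.4 CPM in lymphatic endothelial-like cells. Free RNA from mural-like cells was not estimated, and the part of mural RNA in the blood endothelial-like levels was not tested.

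Ranked over the 5 classes, 27 of the 32 genes had at least 20 UMIs in each library, and 15 of them were highest in the same class in all 3. These were Col15a1, Lama2, Lamb2, Nid1, Itgav and Itgb5 in fibroblast-like cells, Col18a1, Lama4, Lamb1, Itga9, Itgb1, Plec and Cd151 in lymphatic endothelial-like cells, Itga5 in blood endothelial-like cells and Itga6 in basal keratinocyte-like cells. The first and second class were apart beyond the counting interval in 8 of 28 ranked genes in NP, 14 of 31 in dpc16 and 13 of 28 in dpp42, and in all 3 libraries for 4: Lama2, Itga6, Itga9 and Itgb5. The other 11 have a top class that counting error alone could exchange with the next in at least 1 library. The ranking was run for the 32 genes alone, so these counts have no background and only describe them.

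Fibroblast-like cells had the most genes called between dpc16 and NP, and the dpc16 sum was also the largest of any class. Of 25 genes measured in dpc16 over NP, 2 were higher (Nid1 and Itgb5), 9 were lower (Col18a1, Lamb3, Hspg2, Itga3, Itga6, Itga9, Itgb1, Dst and Plec) and 14 were neither, with 7 not measured. The backgrounds were 6.14% higher and 15.6% lower, 21.8% in all, and the median log2 ratio was -0.36 for the 25 genes against -0.30 for all 8049 measured genes. Scaled by size factors instead of total UMIs, the median of all genes was 0.14 and the split was 5 higher (Nid1, Itgb5, Lama2, Lamb2 and Itgb4) and 5 lower (Col18a1, Lamb3, Itga3, Itga9 and Itgb1), so that Hspg2, Itga6, Dst and Plec were no longer called. The backgrounds here and below are those of total UMIs, and no share over all genes is given for size factors.

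Nid1 had 231 CPM in dpc16 fibroblast-like cells, against 121 CPM in NP ones, and was 1.91-fold (1.35 to 2.79) higher. Itgb5 had 231 CPM in dpc16 and 109.9 CPM in NP, 2.1-fold (1.47 to 3.13) higher. Of the matrix genes that fell, Col18a1 had 51.3 CPM in dpc16 and 117 CPM in NP, 2.28-fold (1.53 to 3.31) lower. Hspg2 had 151 CPM in dpc16 and 289 CPM in NP, 1.91-fold (1.5 to 2.41) lower. By total UMIs perlecan and the nidogen were thus called in opposite directions. Hspg2 was not called with size factors, and Nid1 was not called over the shared clusters described below. By total UMIs Lama2 (129.8 CPM in dpc16 and 106 in NP), Lamc1 (129.8 in dpc16 and 139 in NP) and Col4a2 (134 in dpc16 and 128 in NP) were not called. Itgb1 had 183 CPM in dpc16 and 374 CPM in NP, 2.04-fold (1.64 to 2.51) lower. Its partner Itga9 had 12.9 CPM in dpc16 and 36.6 CPM in NP, 2.83-fold (1.29 to 5.56) lower on 10 NP UMIs. Dst, at 113 CPM in dpc16 and 198 CPM in NP, was 1.76-fold (1.3 to 2.32) lower, and Plec, at 53.4 CPM in dpc16 and 103 CPM in NP, was 1.92-fold (1.25 to 2.84) lower.

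The rest of the lower calls, Lamb3, Itga3 and Itga6, are genes of the epidermal side. They had 12.5, 3.55 and 21.7 CPM in dpc16 fibroblast-like cells, against 36.6, 18.3 and 44 CPM in NP ones, on 10, 5 and 12 NP UMIs. Keratinocyte markers were summed in the same cells. The 10 suprabasal markers summed to 552 CPM in dpc16 (10 of 10 with a UMI) and 1615 CPM in NP (9 of 10, Flg at 0), and the 6 basal markers to 629 CPM in dpc16 and 634 CPM in NP (6 of 6 in both). The 9 follicle bulge markers summed to 1761 CPM in dpc16 and 2069 CPM in NP (9 of 9 in both). Upper follicle markers, 9 in all, went the other way, with 1101 CPM in dpc16 (9 of 9) and 524 CPM in NP (8 of 9, Klk10 at 0). Col17a1 was also called lower, with 83.5 CPM in dpc16 and 150.2 CPM in NP. The part of keratinocyte RNA in these 3 calls was not tested.

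**Figure D3:**
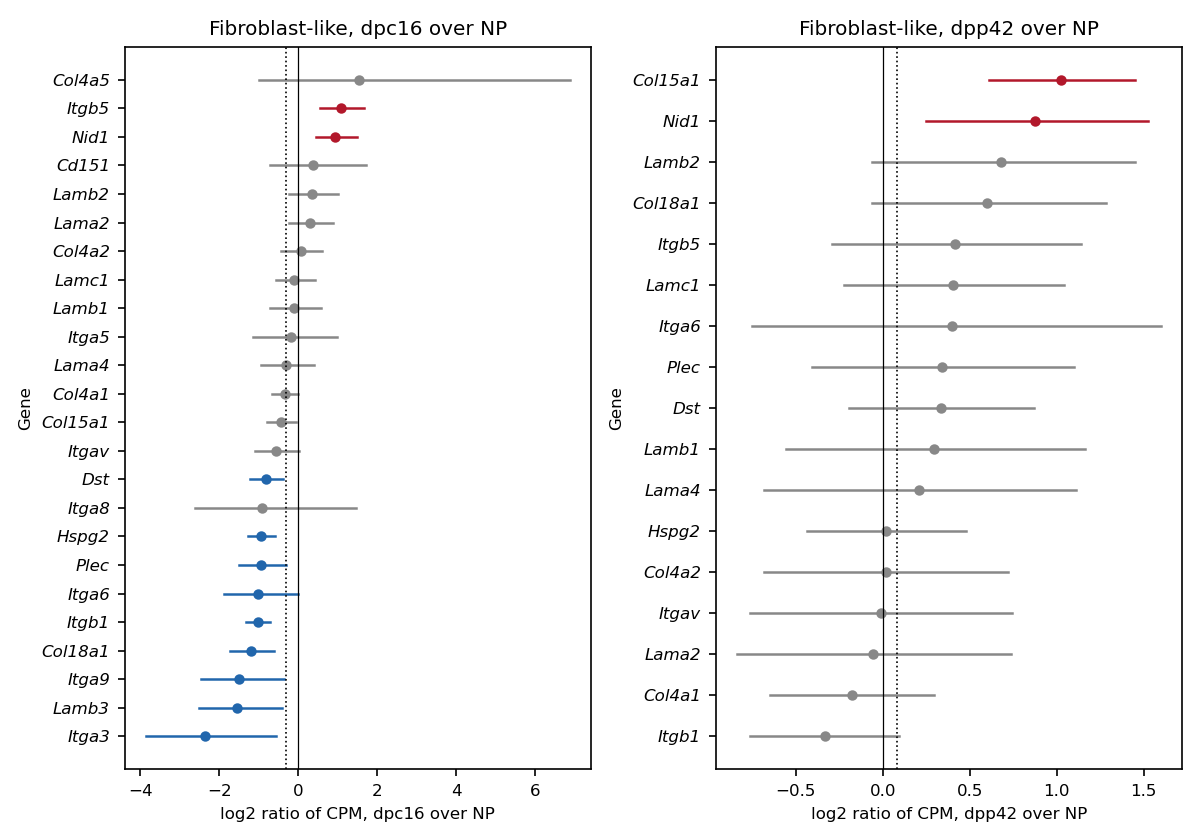
Log2 ratio of CPM (x axes, no UMI added) of the measured genes in fibroblast-like cells, dpc16 over NP on the left and dpp42 over NP on the right, with 95% counting intervals. Red marks genes called higher, blue genes called lower and grey neither, the dotted line is the median of all measured genes, and Itgb4 in dpc16 over NP is left out because NP had 0 UMIs.

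The fibroblast-like clusters were not held in the same shares. Clusters 24 (led by Klk1b24, Klk1 and Col1a1) and 30 (led by Gpx3, Plac8 and Cxcl13) had 324 and 155 cells in dpc16 and 3 and 1 in NP. Cluster 30 had 590.3 CPM of Nid1, which was among its leading genes, against 183, 190.0, 135 and 166 CPM in clusters 4, 5, 19 and 24 of dpc16. Over clusters 4, 5 and 19, weighted equally because each library had at least 10 cells in them, Nid1 had 169 CPM in dpc16 and 135 CPM in NP, a ratio of 1.25 that was not called. In the same 3 clusters Itgb5 had 205 CPM in dpc16 and 107 in NP, Hspg2 144 in dpc16 and 287 in NP, Itgb1 202 in dpc16 and 369 in NP, and Col18a1 54.7 in dpc16 and 110.2 in NP, all still called. Itga6 and Itga9 were not called there.

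Clusters of 1 library also differed from each other. In NP, Nid1 had 55.1 CPM in cluster 4 (led by Ccl2, Ccl7 and Tnfaip6), 191 CPM in cluster 5 (led by Mmp3, Igfbp2 and Lum) and 160.3 CPM in cluster 19 (led by Mfap4, Mgp and Eln). Hspg2 in NP had 269, 477 and 114 CPM in clusters 4, 5 and 19, and Col15a1 186, 491 and 114 CPM. Cluster 5 was highest in both. In dpc16, Col15a1 had 101, 285, 293, 156 and 89.8 CPM in clusters 4, 5, 19, 24 and 30, lowest in the cluster that was highest in Nid1. Col4a1 was lowest in cluster 24 of dpc16, with 103 CPM, against 149 to 372 CPM in the others.

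**Figure D4:**
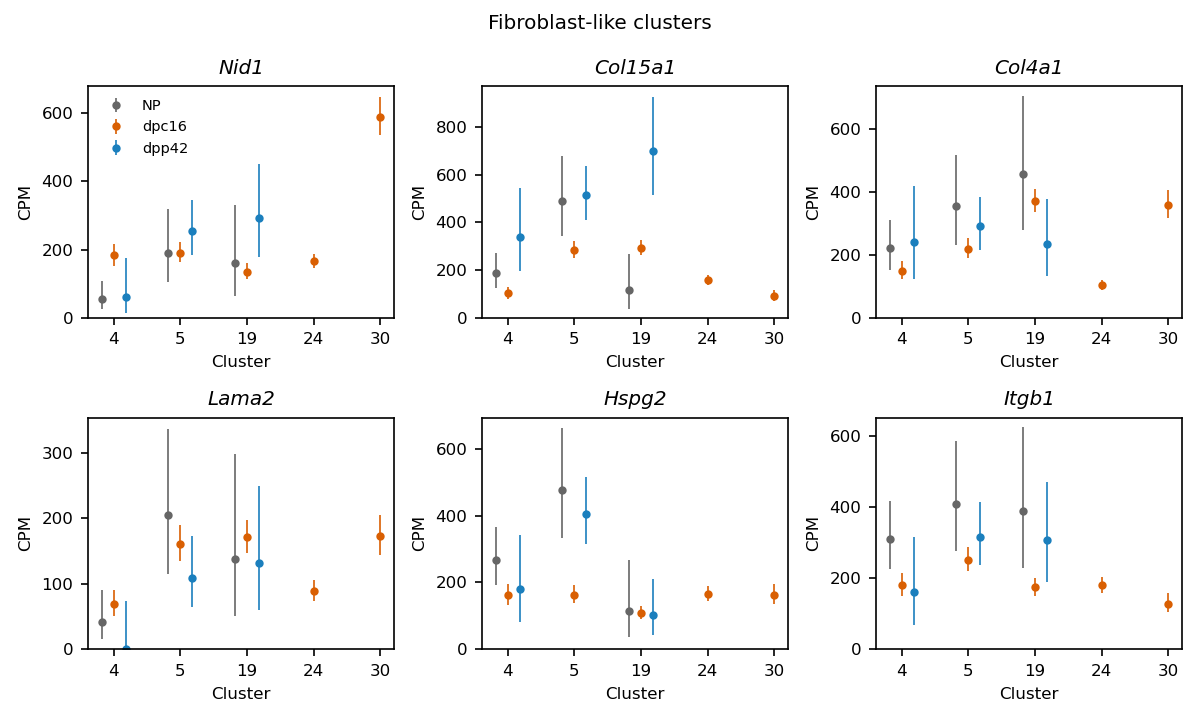
CPM (y axes) of 6 genes in fibroblast-like clusters 4, 5, 19, 24 and 30 (x axes), 1 point per library with at least 10 cells in the cluster (NP grey, dpc16 orange, dpp42 blue), with exact Poisson 95% intervals. Nid1 is highest in cluster 30 of dpc16, and Col15a1 is lowest there and high in dpp42 in cluster 19.

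At day 42 post partum 17 genes were measured in fibroblast-like cells over NP, of which 2 were higher, none was lower and 15 were neither (background 8.43% higher and 7.01% lower, 15.4% in all; median log2 ratio 0.33, and 0.08 for all measured genes). The counts rest on 112 and 97 cells. Col15a1 had 529 CPM in dpp42 fibroblast-like cells, against 260.1 CPM in NP ones, 2.03-fold (1.53 to 2.73) higher. Nid1 had 222 CPM in dpp42 and 121 CPM in NP, 1.83-fold (1.19 to 2.88) higher. Over the shared clusters Col15a1 stayed called, at 518 CPM in dpp42 and 264 CPM in NP, and Nid1, at 202 CPM in dpp42 and 135 CPM in NP, did not. Set against dpc16, 8 of 24 measured genes were higher in dpp42 and 2 were lower (background 20.5% higher and 4.73% lower, 25.3% in all), and the median log2 ratio was 0.47 for the 24 genes and 0.50 for all measured genes. Col15a1, Col18a1, Hspg2, Itga6, Itga8, Itgb1, Dst and Plec were 2.76-, 3.45-, 1.94-, 2.67-, 4.67-, 1.62-, 2.21- and 2.43-fold higher. Itgb5 was 1.58-fold lower, and Itga5 had 6.82 CPM in dpp42, on 2 UMIs, and 28.8 CPM in dpc16, 4.22-fold (1.15 to 35.2) lower. Suprabasal, follicle bulge and basal keratinocyte markers were also more abundant in the dpp42 than in the dpc16 fibroblast-like sum. Upper follicle markers went the other way, and the 9 of them summed to 597 CPM in dpp42 (8 of 9, Klk10 at 0) and 1101 CPM in dpc16 (9 of 9). The 10 suprabasal markers summed to 1388 CPM in dpp42 (9 of 10 with a UMI, Flg at 0) and 552 CPM in dpc16 (10 of 10), the 9 follicle bulge markers to 2973 CPM in dpp42 (8 of 9, Fgf18 at 0) and 1761 CPM in dpc16 (9 of 9), and the 6 basal markers to 856 CPM in dpp42 and 629 CPM in dpc16 (6 of 6 in both). Free RNA could give 49.5 CPM of Itga6 in dpp42 and 17.2 CPM in dpc16, close to the 58 CPM in dpp42 and 21.7 CPM in dpc16 that were counted, and 81.9 CPM of Dst in dpp42 and 17.9 CPM in dpc16. Their part in the calls was not tested.

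Summed over all basal keratinocyte-like cells, no hemidesmosome gene was called in dpc16 over NP. In that comparison 21 genes were measured, none was higher, 3 were lower and 18 were neither (background 7.9% higher and 16.6% lower, 24.4% in all), with 11 not measured, and the median log2 ratio was -0.39 for the 21 genes and -0.21 for all measured genes. Itga3 had 36.6 CPM in dpc16 and 75.4 CPM in NP, 2.06-fold (1.39 to 3.04) lower. Frem2 had 11.4 CPM in dpc16 and 34 CPM in NP, 2.98-fold (1.55 to 5.8) lower, and Col4a5 had 12.6 CPM in dpc16 and 28.1 CPM in NP, 2.23-fold (1.13 to 4.36) lower. None of the 3 was called over the 2 clusters weighted equally. There 4 other genes were called lower: Itga6, at 366 CPM in dpc16 and 596 CPM in NP, Itgb1, at 102 CPM in dpc16 and 172 CPM in NP, Itga2, at 6.33 CPM in dpc16 and 24.9 CPM in NP, and Itgb5, at 6.82 CPM in dpc16 and 17.9 CPM in NP. The mix of clusters differed, and cluster 2 held 213 of 307 basal keratinocyte-like cells in dpc16 and 37 of 246 in NP. In all basal keratinocyte-like cells the ratio of Itga6 was 0.692-fold (0.607 to 0.79), that of Itgb4 1.03-fold (0.813 to 1.3) and that of Lamb3 0.937-fold (0.735 to 1.2), with dpc16 over NP and none called.

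In dpp42 over NP, 15 genes were measured in basal keratinocyte-like cells, 2 higher and 1 lower (background 3.02% higher and 3.06% lower, 6.09% in all). With size factors, for which no background is given, the split was 1 higher (Lamb2) and 3 lower (Col18a1, Itga3 and Itgb4). Lamb2 had 37.1 CPM in dpp42 and 13.3 CPM in NP, 2.79-fold (1.1 to 7.39) higher on 13 and 9 UMIs. Plec had 191 CPM in dpp42 and 126 CPM in NP, 1.52-fold (1.09 to 2.12) higher. Itga3 was lower in this library too, with 39.9 CPM in dpp42 against 75.4 CPM in NP, 1.89-fold (1.03 to 3.69), so that NP, which both comparisons share, had the highest level. Over the 2 basal clusters weighted equally these calls of Lamb2, Plec and Itga3 stayed. Itga6 was called lower there as well, at 378 CPM in dpp42 and 596 CPM in NP, with 14 dpp42 cells in cluster 2. In dpp42 over dpc16, Lama5, Lamb2, Itgav, Dst, Plec and Frem2 were higher of 20 measured genes and none was lower (background 14.6% higher and 8% lower, 22.6% in all). Dst had 749.7 CPM in dpp42 and 388 CPM in dpc16, 1.93-fold (1.67 to 2.23) higher.

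In follicle keratinocyte-like cells Cd151 was the 1 gene higher in dpc16 over NP, Col4a1, Lamb1 and Itgb1 were lower, and 20 of the 24 measured genes were neither (background 9% higher and 9.98% lower, 19% in all). The median log2 ratio was -0.30 for the 24 genes and -0.08 for all measured genes. With size factors, for which no background is given, the split was 2 higher (Itgb4 and Cd151) and 1 lower (Lamb1). Cd151 had 109 CPM in dpc16 and 54 CPM in NP, 2.03-fold (1.4 to 3.02) higher. Itgb1 had 102 CPM in dpc16 and 154 CPM in NP, 1.51-fold (1.17 to 1.92) lower. Col4a1 had 20.9 CPM in dpc16 and 37.1 CPM in NP, 1.78-fold (1.03 to 2.98) lower, but over shared clusters weighted equally it had 26.8 CPM in dpc16 and 24.4 CPM in NP, a log2 ratio of 0.13, and the direction turned. Under the same weighting Lamb1 and Itgb1 were not called either, at log2 ratios of -0.50 and -0.51, Cd151 stayed higher, and Lama3, at 64.4 CPM in dpc16 and 35.3 CPM in NP, and Itgb4, at 182 CPM in dpc16 and 109 CPM in NP, were called higher. The 9 upper follicle markers summed to 9528 CPM in dpc16 follicle keratinocyte-like cells (9 of 9 detected) and 3849 CPM in NP ones (8 of 9, Klk10 at 0), and cluster 14, led by Cldn1, Plet1 and Aqp3, had 189 cells in dpc16 and 19 in NP. The 5 red cell markers summed to 1403 CPM in dpc16 follicle keratinocyte-like cells and 13.5 CPM in NP ones, with 5 and 2 of the 5 detected and Hba-a1, Hbb-bs and Hbb-bt at 0 in NP. Cluster 3, with haemoglobin genes among its leading genes, had 222 cells in dpc16 and 19 in NP, and the part of both clusters in these calls was not tested. In dpp42 over NP, Col18a1 (138 CPM in dpp42 and 89.4 in NP) and Itgav (100.1 CPM in dpp42 and 57.4 in NP) were higher of 22 measured and none was lower (background 7.35% higher and 3.39% lower, 10.7% in all). In dpp42 over dpc16, 4 genes were higher and 4 lower of 24 (background 15.3% and 7.25%, 22.5% in all), and Fras1 was among the higher, at 14.6-fold (5.44 to 49.3) on 23 and 5 UMIs.

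In blood endothelial-like cells type IV collagen and the outer collagen moved in opposite directions in dpc16. Of 18 genes measured over NP, Col4a1 and Cd151 were higher, Col15a1 and Lama4 were lower and 14 were neither (background 5.72% higher and 10.2% lower, 15.9% in all; median log2 ratio -0.17, and -0.14 for all measured genes). By size factors, for which no background is given, 3 were higher, Col4a2 added, and 2 lower. Col4a1 had 450.5 CPM in dpc16 and 265 CPM in NP, 1.7-fold (1.18 to 2.54) higher. Its pair Col4a2 had 251 CPM in dpc16 and 165 CPM in NP, 1.52-fold (0.951 to 2.56), which was not called. Col15a1 had 128 CPM in dpc16 and 256 CPM in NP, 2.0-fold (1.28 to 3.06) lower. Lama4 had 71.1 CPM in dpc16 and 165 CPM in NP, 2.33-fold (1.3 to 4.02) lower. All 4 of these directions were also those of cluster 17 alone, where Col4a2 was called, at 298 CPM in dpc16 and 184 CPM in NP. That cluster held 38 of the 41 NP cells and 107 of the 128 dpc16 cells of the class, so it is no separate support. The NP sum rests on 41 cells. Fibroblast markers in these cells, 7 in all, summed to 1859 CPM in dpc16 (7 of 7 detected) and 438 CPM in NP (5 of 7, Lum and Pdgfra at 0), and their part in these calls was not tested.

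In dpp42 over NP no gene of 16 measured in blood endothelial-like cells was called (background 2.62% higher and 3.44% lower, 6.05% in all), on 89 and 41 cells; this does not show that the levels were alike. In dpp42 over dpc16, Itga6 was higher and Col4a2 lower of 20 (background 13.1% and 8.38%, 21.5% in all), while red cell markers summed to 6692 CPM in dpp42 blood endothelial-like cells and 623 CPM in dpc16 ones, a part not tested. In lymphatic endothelial-like cells 19 genes were measured in dpc16 over NP, Col4a2 was higher, Itgb1 and Dst were lower (background 4.59% and 6.06%, 10.6% in all), and the ratio of Col4a2, 3.2-fold (1.07 to 15.8), rests on 3 NP UMIs. The 7 fibroblast markers summed to 4364 CPM in dpc16 lymphatic endothelial-like cells (7 of 7 detected) and 239.7 CPM in NP ones (4 of 7, Lum, Pdgfra and Dpt at 0), a part not tested. None of 13 was called in dpp42 over NP (background 4.96% and 3.08%, 8.04% in all). In dpp42 over dpc16, Col18a1, Lamb1 and Hspg2 were higher and Col4a1 was lower of 19 (background 9.99% and 7.03%, 17% in all), with Col18a1 at 336 CPM in dpp42 and 163 CPM in dpc16.

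**Figure D5:**
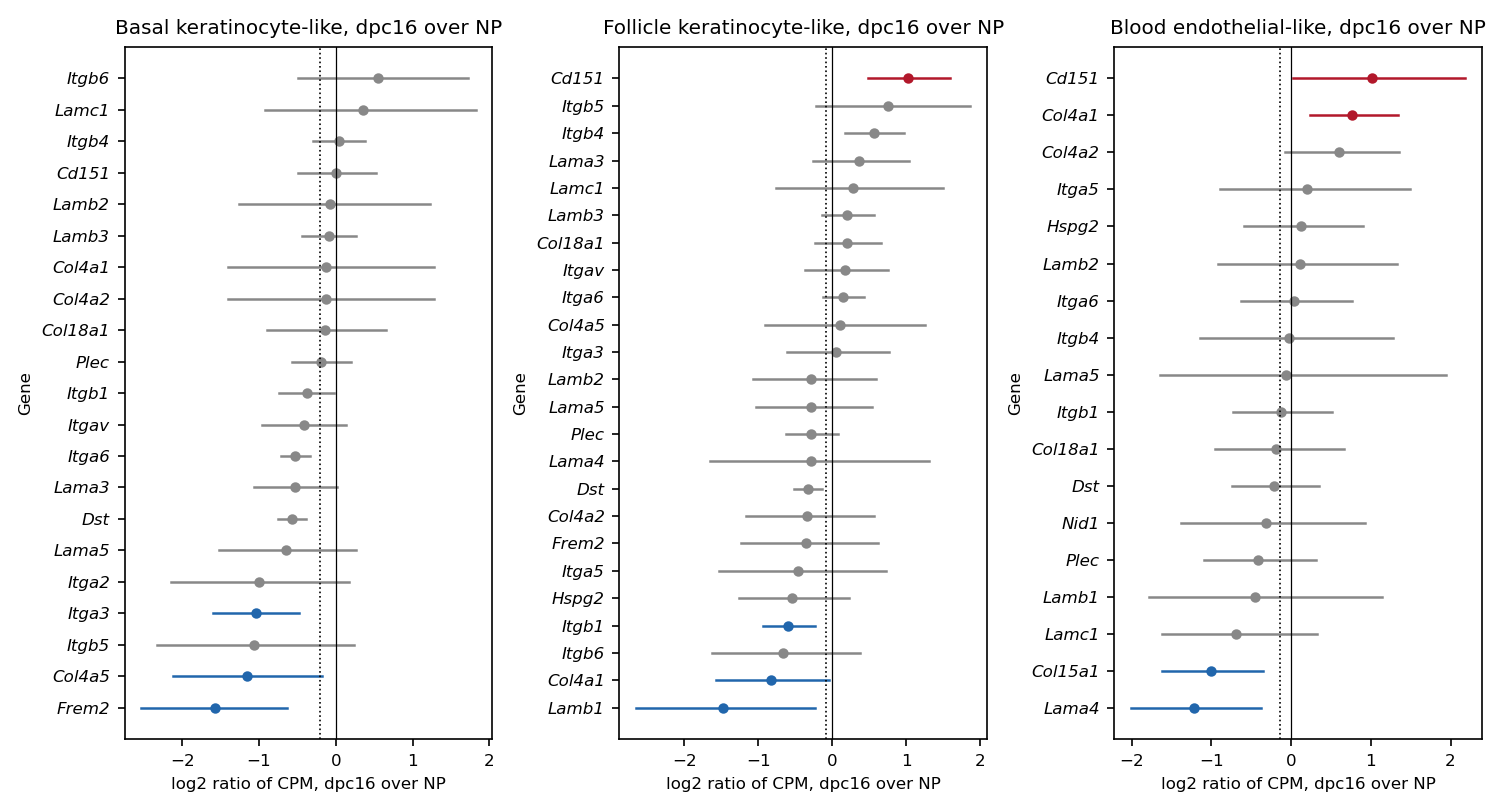
Log2 ratio of CPM (x axes, no UMI added) of the measured genes, dpc16 over NP, in basal keratinocyte-like, follicle keratinocyte-like and blood endothelial-like cells, with 95% counting intervals. Red marks genes called higher, blue genes called lower and grey neither; Col4a1 is blue in the follicle panel and red in the endothelial one.

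Other genes of the pathway were read from 3 lists. Of 27 further basement membrane genes, 18 were measured in fibroblast-like cells in dpc16 over NP, 3 higher and 4 lower, with a median log2 ratio of -0.36. The higher ones were Smoc2, a calcium-binding matrix protein, with 773 CPM in dpc16 and 62.3 CPM in NP, 12.4-fold (7.74 to 21.3); Sparc, which binds type IV collagen, with 25292 CPM in dpc16 and 7322 CPM in NP, 3.45-fold (3.3 to 3.61); and Lamc3, a rarer gamma chain, with 34 CPM in dpc16 and 7.33 CPM in NP, 4.64-fold (1.27 to 38.7) on 2 NP UMIs. Fbln1, fibulin, had 168 CPM in dpc16 and 451 CPM in NP, 2.68-fold (2.2 to 3.24) lower. Smoc2 in basal keratinocyte-like cells had 173 CPM in dpc16 and 325 CPM in NP, lower where the fibroblast-like cells were higher, and 1 of 10 measured genes of this list was higher there and 3 were lower.

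Of 21 other integrins and receptors, 11 were measured in fibroblast-like cells in dpc16 over NP, 1 higher and 2 lower, with a median log2 ratio of -0.22. Sdc1, a syndecan of epithelia, had 61.8 CPM in dpc16 and 18.3 CPM in NP, 3.37-fold (1.43 to 10.5) higher. Sdc4, a syndecan of focal adhesions, had 350.2 CPM in dpc16 and 769 CPM in NP, 2.2-fold (1.89 to 2.54) lower, and Ddr2, a collagen receptor kinase, had 167 CPM in dpc16 and 308 CPM in NP, 1.85-fold (1.46 to 2.31) lower. In basal keratinocyte-like cells none of 9 was higher and 1 was lower. Of 21 links from integrins to actin, 18 were measured in fibroblast-like cells, none higher and 3 lower, with a median of -0.64, among them Vcl (vinculin) with 17.5 CPM in dpc16 and 44 CPM in NP and Fermt2 (kindlin) with 83.5 CPM in dpc16 and 161 CPM in NP. In basal keratinocyte-like cells 2 of 15 were higher and 2 lower, with Pxn (paxillin) at 31.2 CPM in dpc16 and 13.3 CPM in NP and Tns3 (a tensin) at 8.39 CPM in dpc16 and 23.6 CPM in NP. These counts stand beside the same backgrounds, 21.8% called in fibroblast-like and 24.4% in basal keratinocyte-like cells.

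In dpp42 over NP fewer genes of the lists were measured. Fibroblast-like cells had 2 higher and none lower of 13 further basement membrane genes, 2 and none of 8 receptors, and 1 and 1 of 10 actin links (background 15.4%). Basal keratinocyte-like cells had 1 higher and none lower of 9, none called of 9, and 1 higher and none lower of 11 (background 6.09%).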

How the data were processed

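Single-cell RNA from 1 library each of NP, dpc16 and dpp42 skin was analysed, grouped as the labels give them. The deposited matrices are whole UMI counts for each barcode, not normalized by the authors. Per the submitters' processing notes, they come from Cell Ranger 2.2.0 with mm10 (GRCm38). For the annotation release and the cell calling, nothing is stated in the labels used here. The matrices hold 6031814, 21679047 and 5794940 UMIs over 1330, 4122 and 1196 barcodes in NP, dpc16 and dpp42. After filtering, 5905715, 19711100 and 5432269 UMIs remained. More UMIs give narrower intervals, so dpc16 values are the most precise and NP lymphatic ones the least.

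Kept cells of all libraries were clustered with scanpy 1.11.5: each cell was scaled to 10000 counts and log-transformed, 2000 variable genes were chosen by library without the 32 genes and scaled (limit 10), and 30 principal components and 15 neighbours went into Leiden clustering (igraph 0.11.9; resolution 1, 2 iterations, seed 0). Clusters were named from 20 lists of 133 markers, taking the list most enriched on average over the clusters of lower level (20 CPM added), with at least 3 markers in 10% of cells at over 1.4 times that level. A cluster with more markers of another class among its 10 leading genes stayed unnamed. UMIs were summed per class and library. Intervals are exact Poisson for CPM and exact conditional binomial for ratios, at 95%, and were tested on simulated data. Log2 ratios in the text have 0.5 UMI added, the gene ratios drawn in the figures have none, and the floor for a count of 0 is 3 UMIs. Free RNA was estimated as the median share of a class's defining marker level found in another class.

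The genes and lists were chosen with earlier results of these data known. All 32 genes are described, and of each list of other genes up to 4 were named, those called with the largest ratio in fibroblast-like or basal keratinocyte-like cells in dpc16 over NP. Alternatives were another clustering resolution, the 32 genes kept in the clustering, no clustering, a 5% mitochondrial limit, cells thinned to 1000 UMIs, size factors, no filter on low counts and shared clusters weighted equally. Gene positions are from GENCODE M21 and promoter windows from RefSeq on GRCm38.p6. Software was Python 3.11.15, numpy 2.4.6, scipy 1.17.1, pandas 2.3.3, anndata 0.12.19, scikit-learn 1.9.0 and matplotlib 3.10.9.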

Additional observations from a re-analysis of the deposited data

Results flagged for a closer look

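Col4a1 in dpc16 over NP differed in sign between cell classes. The log2 ratio was 0.75 in blood endothelial-like cells, with 450.5 CPM in dpc16 and 265 CPM in NP, and -0.85 in follicle keratinocyte-like cells, with 20.9 CPM in dpc16 and 37.1 CPM in NP. With 1 library per group the difference between the classes was not tested. Over shared follicle clusters weighted equally the follicle value was 0.13, from 26.8 CPM in dpc16 and 24.4 CPM in NP.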

How the results depend on the processing

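No paired analysis was possible because each group is 1 library, and for the same reason no library could be left out. Of 29 calls of single genes between stages, 5 kept call and direction under every one of the 8 alternatives that measured them, 23 lost the call in the same direction under at least 1, and 1 reversed: Col4a1 in follicle keratinocyte-like cells, dpc16 over NP, at a log2 ratio of 0.13 with shared clusters weighted equally. Counts of called genes moved by over 1.5 times as follows, and the cause was not tested. No share over all genes is given for the alternatives, so these counts have no background and only describe the genes of this set. In dpc16 over NP, basal keratinocyte-like cells had 5 without clustering and 6 at a 5% mitochondrial limit in place of 3, follicle keratinocyte-like cells 1 without clustering and 2 thinned in place of 4, fibroblast-like cells 7 thinned in place of 11, and blood endothelial-like cells 1 without clustering, 2 at the 5% limit and 1 thinned in place of 4. In dpp42 over NP, follicle keratinocyte-like cells had 0 thinned, 1 with size factors and 4 with no filter in place of 2, fibroblast-like cells 1 thinned, 6 with no filter and 1 over shared clusters in place of 2, and blood endothelial-like cells 1 without clustering, 1 at the 5% limit, 1 with size factors and 1 over shared clusters in place of 0. Genes highest in the same class in all libraries numbered 7 after thinning in place of 15. Nid1 in fibroblast-like cells, dpc16 over NP, lost its call under shared clusters alone, at a log2 ratio of 0.32. The smallest sum of the 5 classes, that of NP lymphatic endothelial-like cells, held 66763 UMIs.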
